A study of Mus musculus with 18 samples.

Results

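The Notch genes described here are 10 genes in 3 roles: the ligands Dll1, Dll3, Dll4, Jag1 and Jag2, the receptors Notch1, Notch2 and Notch3, and the target genes Nrarp and Hey1. They were chosen by name, with earlier results of these data known. All 10 had exactly 1 probe that names that gene alone, among the 19935 genes measured. The study treated mouse cells with agents that damage DNA, with the stated aim of finding expression changes that depend on p53, and measured total RNA on 18 Affymetrix whole-transcript arrays. R1E cells received 0.5 µM adriamycin for 8 hours (4 arrays), UV at 25 J/m2 with 8 hours allowed (4 arrays) or a mock treatment (4 arrays). Mouse embryonic stem cells of genotype p53-/-, strain background 129X1 x 129S1, received 0.5 µM adriamycin for 8 hours (3 arrays) or were left untreated (3 arrays). All groups were grown in serum medium with leukemia inhibitory factor, which holds mouse embryonic stem cells undifferentiated. The labels give neither the p53 genotype of R1E nor whether p53-/- is 1 clone, and they do not say whether the arrays of a group are separate cultures, so the p-values speak to array-to-array variation, part of which may be technical.

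Notch receptors are cell-surface proteins that are activated by ligands on a neighbouring cell. Ligand binding leads to cleavage of the receptor, and the freed intracellular part enters the nucleus, joins the DNA-binding protein RBPJ and a Mastermind coactivator, and turns on targets such as the HES and HEY repressors and Nrarp, whose product binds that complex and limits its activity. In mouse embryonic stem cells the pathway is dispensable for self-renewal and is known for steering cells toward neural fates once they leave it.

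The values are log2 intensities as deposited, so a difference of 1 is a doubling. The R1E and p53-/- sets were processed separately, and levels are therefore compared only within a set. Array medians lay between 5.9 and 6.05 in R1E and between 5.58 and 5.72 in p53-/- cells. Arrays deviated from their group mates by an SD of 0.1 to 0.14 in R1E and 0.2 to 0.25 in p53-/- cells, except untreated p53-/- replicate 3 at 0.35, which stood apart, so the p53-/- changes are also given without it. The mean level of 14 embryonic stem cell markers was 9.9 to 10 on R1E adriamycin arrays, 10.4 to 10.44 on UV arrays and 10.69 to 10.75 on mock arrays, and in p53-/- cells 9.53 to 9.58 after adriamycin and 9.55 to 9.69 untreated. The mean of 8 fibroblast (feeder) markers was 4.91 to 5.13 over the R1E arrays and 6.94 to 7.35 over the p53-/- arrays. Trp53 itself was not analysed here, and the p53-/- genotype is taken as the submitters gave it.

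The ligands Dll1, Jag1 and Jag2, the receptors Notch1 and Notch3, and the target Nrarp rose under both kinds of damage in R1E cells. After adriamycin 6 of 10 were higher and 2 lower, against 22.1% of all genes higher and 25.6% lower, with a called gene being one with a Benjamini-Hochberg adjusted p from limma below 0.05. After UV 6 were higher and 1 lower, against 22.6% and 21.2% of all genes. The median log2 change of the 10 was 0.97 after adriamycin and 0.53 after UV, beside -0.02 and 0.03 over all genes. Because the 10 were chosen with earlier results of these data known, these counts and medians are a description and not a test. Since RNA was taken from whole cultures, a larger share of cells expressing a gene and more RNA per cell cannot be told apart.

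**Figure D1:**
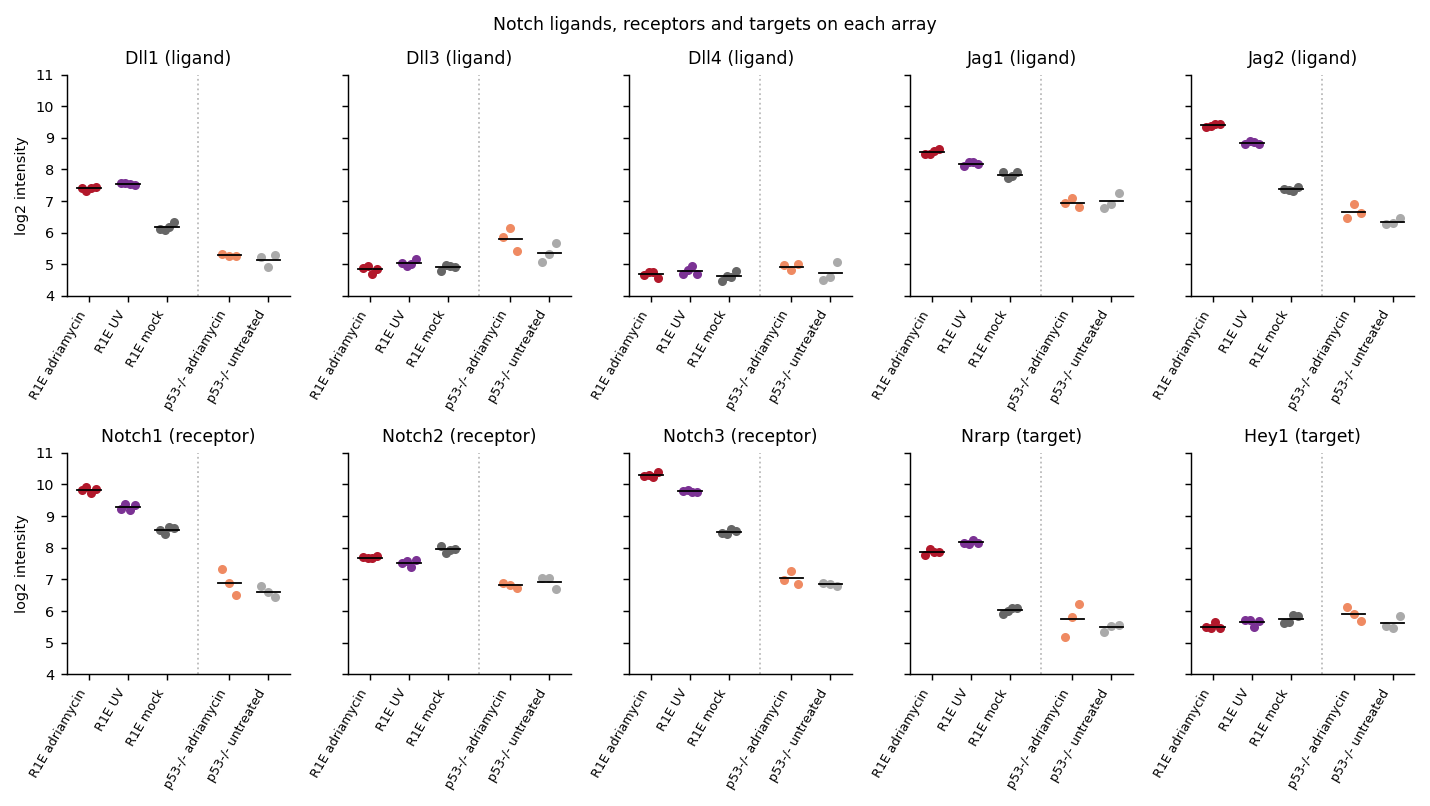
Log2 intensity (vertical axis, 4 to 11 in every panel) of each Notch gene on each array, with 1 point per array and a line at the group mean. The dotted line separates the R1E and p53-/- sets, which were processed separately. Treated R1E arrays lie above the mock arrays for Dll1, Jag1, Jag2, Notch1, Notch3 and Nrarp, while the p53-/- groups lie close together.

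Among the ligands, Jag2, a Serrate-type ligand, had the largest rise. Its log2 levels were 9.35, 9.38, 9.44 and 9.44 after adriamycin, 8.80, 8.91, 8.88 and 8.82 after UV, and 7.37, 7.35, 7.33 and 7.44 in mock cells. The 3 groups did not overlap. The change was 2.03 ± 0.05 on the log2 scale after adriamycin (SE, n = 4 each, 4.08-fold, limma adjusted p = 1e-14) and 1.48 ± 0.05 after UV (2.79-fold, limma adjusted p = 1.27e-12).

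Jag1, the other Serrate-type ligand, moved in the same direction by less. It stood at 8.49, 8.48, 8.59 and 8.66 after adriamycin, 8.10, 8.22, 8.22 and 8.16 after UV, and 7.91, 7.72, 7.79 and 7.91 in mock cells. Every adriamycin array was above every UV array, and every UV array above every mock array. Adriamycin raised it 1.65-fold (log2 change 0.72 ± 0.06, limma adjusted p = 2.46e-08) and UV 1.27-fold (0.34 ± 0.06, limma adjusted p = 0.000151).

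Dll1, a Delta-type ligand that activates Notch in neighbouring cells, had levels of 7.41, 7.33, 7.41 and 7.44 after adriamycin, 7.56, 7.57, 7.53 and 7.51 after UV, and 6.12, 6.10, 6.18 and 6.35 in mock cells. Both treated groups lay above all mock arrays, and here the UV arrays were the higher ones. The log2 change was 1.21 ± 0.06 after adriamycin (2.32-fold, limma adjusted p = 1.97e-11) and 1.36 ± 0.06 after UV (2.56-fold, limma adjusted p = 1.63e-11).

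Neither of the other Delta-type ligands was called in R1E cells after either treatment. Dll3, a divergent family member that acts inside its own cell and blocks Notch rather than activating it, had 4.69 to 4.94 after adriamycin, 4.95 to 5.16 after UV and 4.80 to 4.97 in mock cells. Its log2 change was -0.07 ± 0.06 after adriamycin (95% confidence interval -0.20 to 0.07, limma adjusted p = 0.427) and 0.13 ± 0.06 after UV (-0.01 to 0.26, limma adjusted p = 0.121). With quantile normalization the adriamycin change of Dll3 was -0.15 (limma adjusted p = 0.0315) and with array medians centred -0.19 (limma adjusted p = 0.0179), both past the threshold. Dll4, the ligand best known from endothelial cells, had 4.57 to 4.76 after adriamycin, 4.68 to 4.94 after UV and 4.46 to 4.80 in mock cells. The groups overlapped, and the changes were 0.07 ± 0.08 after adriamycin (-0.09 to 0.23, limma adjusted p = 0.487) and 0.16 ± 0.08 after UV (0.01 to 0.32, limma adjusted p = 0.0895). Without mock replicate 4 the UV change of Dll4 was 0.22 (limma adjusted p = 0.0208). Both genes were in the lower part of the array, at the 37.4th and 33.2nd percentile of all genes in mock cells, where array intensities are known to understate changes.

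The receptors divided. Notch3 levels were 10.28, 10.31, 10.24 and 10.38 after adriamycin, 9.79, 9.83, 9.76 and 9.76 after UV, and 8.48, 8.42, 8.58 and 8.53 in mock cells. No array of one group reached the range of another. Its log2 change was 1.8 ± 0.05 after adriamycin (3.48-fold, limma adjusted p = 5.49e-14) and 1.28 ± 0.05 after UV (2.44-fold, limma adjusted p = 8.25e-12).

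Notch1, the receptor with the broadest developmental roles, followed the same order. It measured 9.83, 9.91, 9.72 and 9.85 after adriamycin, 9.24, 9.39, 9.20 and 9.34 after UV, and 8.57, 8.43, 8.67 and 8.62 in mock cells. The 3 ranges were separate. Its log2 change was 1.25 ± 0.06 after adriamycin (2.39-fold, limma adjusted p = 6.71e-11) and 0.72 ± 0.06 after UV (1.65-fold, limma adjusted p = 1.09e-07).

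Notch2, a close paralog of Notch1, went the other way. Its levels were 7.70, 7.67, 7.68 and 7.74 after adriamycin, 7.53, 7.58, 7.38 and 7.62 after UV, and 8.05, 7.83, 7.94 and 7.97 in mock cells. All treated arrays lay below all mock arrays. It was 1.19-fold lower after adriamycin (log2 change -0.25 ± 0.06, limma adjusted p = 0.00176) and 1.34-fold lower after UV (-0.42 ± 0.06, limma adjusted p = 1.91e-05).

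The bases just before the start sites of these 3 receptors are shown because the genes are close relatives that moved in opposite directions. The sequences are from RefSeq on mouse build GRCm38.p6, 5′ to 3′ on the strand of the gene, and they end at the base before the annotated start; 9 of the 10 Notch genes matched an entry. Capitals mark GC boxes, GGGCGG or its reverse complement CCGCCC, the letters bound by SP-family factors. The Notch1 window is chr2:26503823-26504072 on the minus strand, the Notch2 window chr3:98013288-98013537 on the plus strand, and the Notch3 window chr17:32166897-32167140 on the minus strand, from which 6 bases inside the annotated gene were removed.
Notch1: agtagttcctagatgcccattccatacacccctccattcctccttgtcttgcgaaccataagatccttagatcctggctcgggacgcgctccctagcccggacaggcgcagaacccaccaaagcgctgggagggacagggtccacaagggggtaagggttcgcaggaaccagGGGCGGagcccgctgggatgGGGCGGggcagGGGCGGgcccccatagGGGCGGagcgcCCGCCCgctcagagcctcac
Notch2: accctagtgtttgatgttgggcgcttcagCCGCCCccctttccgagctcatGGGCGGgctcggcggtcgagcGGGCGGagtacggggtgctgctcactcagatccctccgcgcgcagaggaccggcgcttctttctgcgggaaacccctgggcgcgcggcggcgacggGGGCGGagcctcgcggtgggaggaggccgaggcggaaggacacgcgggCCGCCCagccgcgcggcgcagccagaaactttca
Notch3: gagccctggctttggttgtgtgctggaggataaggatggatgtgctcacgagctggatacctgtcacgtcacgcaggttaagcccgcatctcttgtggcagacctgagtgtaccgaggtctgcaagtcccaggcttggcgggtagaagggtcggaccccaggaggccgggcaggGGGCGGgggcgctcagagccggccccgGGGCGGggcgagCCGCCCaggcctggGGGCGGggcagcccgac

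Searching both strands found 5 GC boxes in the Notch1 window, 5 in Notch2 and 4 in Notch3. The counts were close but the positions were not. In Notch1 the boxes began 78 to 20 bases before the start. In Notch3 they began 76 to 23 bases before it, counted with the 6 removed bases. Those of Notch2 were spread wider, from 221 to 34. Any part of the boxes in the changes was not tested. Of the 9 genes with an entry, 8 had bases outside the annotated gene in this window; for Jag2 the whole window lay inside it and was left out. At least 1 GC box stood in the windows of 6 of these 8 genes, against 32.7% of 32851 mouse promoter windows of 250 bases, which were searched untrimmed. The letters TGGGAA, the hexamer bound by RBPJ, were in none of the windows of the 8 genes and in 21.6% of all windows. The p53 half-site, also searched on both strands, was in none and in 7.13% of all windows. A match or its absence describes these letters in this window and nothing else.

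Of the targets, Nrarp rose most of all 10 genes under UV. Its levels were 7.76, 7.96, 7.87 and 7.87 after adriamycin, 8.15, 8.12, 8.25 and 8.16 after UV, and 5.90, 5.99, 6.09 and 6.08 in mock cells. As with Dll1, the UV arrays were the highest and the 3 groups were separate. The log2 change was 1.85 ± 0.06 after adriamycin (3.6-fold, limma adjusted p = 1.85e-13) and 2.15 ± 0.06 after UV (4.45-fold, limma adjusted p = 1.79e-13). The window before its start, chr2:25180508-25180757 on the plus strand, is shown as that of the target gene that moved most. Its capitals mark a pair of GC boxes on the opposite strand that share a base, and an E-box, CACGTG, next to them. It was the only one of the 8 genes searched with this E-box, which 6.02% of all windows hold.
Nrarp: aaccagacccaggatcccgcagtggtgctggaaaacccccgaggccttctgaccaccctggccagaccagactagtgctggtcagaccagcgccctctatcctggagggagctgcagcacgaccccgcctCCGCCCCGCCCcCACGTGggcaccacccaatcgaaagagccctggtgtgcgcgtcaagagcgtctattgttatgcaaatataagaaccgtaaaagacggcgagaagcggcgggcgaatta

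Hey1, a repressor of the hairy family induced by Notch in many tissues, did not follow Nrarp. It stood at 5.48, 5.45, 5.65 and 5.46 after adriamycin, 5.71, 5.71, 5.50 and 5.68 after UV, and 5.62, 5.65, 5.88 and 5.83 in mock cells. The groups overlapped: adriamycin replicate 3 lay within the mock range, and UV replicate 3 below the rest of its group. Hey1 was 1.18-fold lower after adriamycin (log2 change -0.24 ± 0.07, limma adjusted p = 0.0114), and the UV change was -0.10 ± 0.07 (-0.25 to 0.05, limma adjusted p = 0.303). With quantile normalization the UV change of Hey1 was -0.20 and past the threshold (limma adjusted p = 0.0272).

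**Figure D2:**
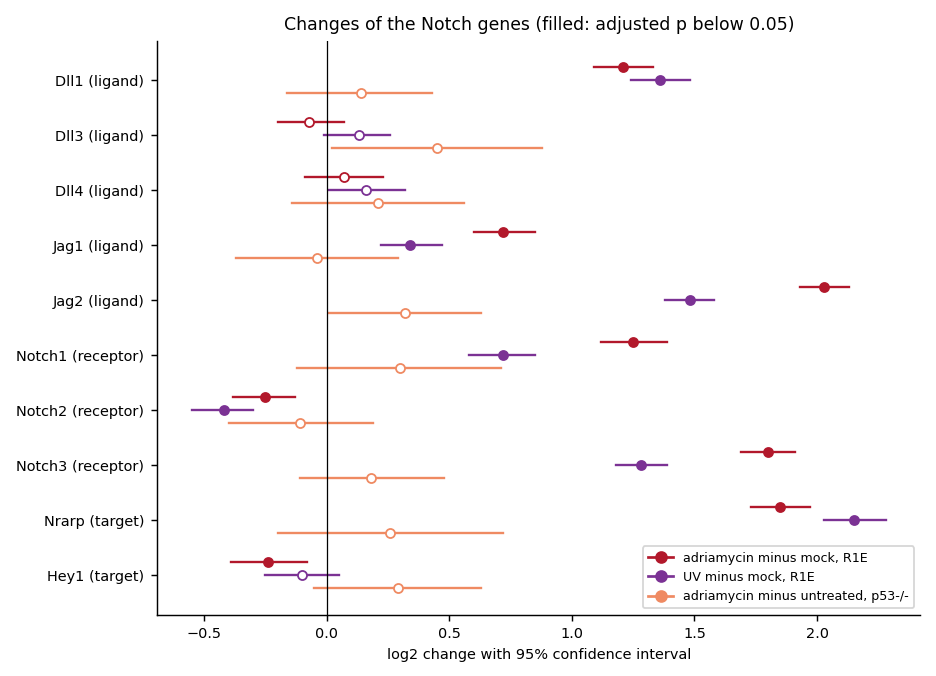
Log2 change of each Notch gene (horizontal axis) with its 95% confidence interval for adriamycin minus mock in R1E, UV minus mock in R1E and adriamycin minus untreated in p53-/- cells, with filled points for a limma adjusted p below 0.05. Jag2 at 2.03, Nrarp at 1.85 and Notch3 at 1.8 were the largest changes after adriamycin in R1E, and no p53-/- point is filled.

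The direct comparison of adriamycin with UV asked whether these genes differed between the treatments as given. Each agent was used at a single dose and a single time. The kind of damage therefore cannot be told apart from its dose, strength or timing. Of the 10 genes, 5 were higher and 3 lower after adriamycin than after UV, against 19.8% and 22.2% of all genes. Jag1, Jag2, Notch1 and Notch3 were the genes that adriamycin raised more, by log2 differences of 0.38 ± 0.06, 0.55 ± 0.05, 0.54 ± 0.06 and 0.52 ± 0.05, with limma adjusted p between 1.44e-07 and 6.53e-05. Nrarp was raised less by adriamycin than by UV, with a difference of -0.30 ± 0.06 (limma adjusted p = 0.000423). Both Serrate-type ligands thus stood with Notch1 and Notch3, while Nrarp stood apart from them.

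Smaller differences lay close to the threshold. Dll1 was lower after adriamycin than after UV by a log2 difference of -0.14 ± 0.06 (limma adjusted p = 0.0485), and with each of 12 R1E arrays left out in turn the difference stayed between -0.16 and -0.12 while the adjusted p ran from 0.0195 to 0.121 and missed the threshold in 10 cases. The difference for Dll3 was -0.20 ± 0.06 (limma adjusted p = 0.0208), and the call ended without adriamycin replicate 3 (-0.15, limma adjusted p = 0.0789) or UV replicate 4 (-0.15, limma adjusted p = 0.0741). For Notch2 it was 0.17 ± 0.06 (limma adjusted p = 0.0325), lost with array medians centred (0.12, limma adjusted p = 0.101) and without adriamycin replicate 1 (0.17, limma adjusted p = 0.0618) or 4 (0.15, limma adjusted p = 0.0818) or UV replicate 1 (0.17, limma adjusted p = 0.0551) or 3 (0.12, limma adjusted p = 0.122). Hey1 differed by -0.14 ± 0.07 (-0.29 to 0.01, limma adjusted p = 0.135), or by -0.19 with array medians centred (limma adjusted p = 0.0378) and without UV replicate 3 (limma adjusted p = 0.0493). For Dll4 the difference was -0.09 ± 0.08 (-0.25 to 0.07, limma adjusted p = 0.348).

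The order of the R1E groups therefore took several forms. Jag1, Jag2, Notch1 and Notch3 ran from adriamycin at the top through UV to mock, with every step called. Nrarp ran from UV through adriamycin to mock with every step called, and Dll1 had the same order, its adriamycin to UV step lying close to the threshold. Notch2 ran from mock through adriamycin to UV. For Dll3 the only called step was that between UV and adriamycin, for Hey1 that between mock and adriamycin, and for Dll4 no step was called.

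Likeness of pattern was taken as Pearson's r over the 12 R1E arrays, which share 3 group levels, so any gene with the same order of groups scores high, and r is given as a description only. Jag2 and Notch3 correlated with each other at 0.997. The genes most like Jag2 were Klhl26, Them5 and Cpne2, each at 0.998, and those most like Notch3 were Them5 at 0.998 and Abhd5 and Klhl26 at 0.997. As many as 857 genes exceeded 0.95 with Jag2 and 828 with Notch3. Nrarp was closest to Pcyox1l at 0.996, Mlec at 0.994 and the ligand Dll1 at 0.993, with 342 genes above 0.95, and it correlated less with Jag2, at 0.92, and with Notch1, at 0.832. Notch2 ran against Nrarp at -0.902.

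In p53-/- cells the question was whether adriamycin changed these genes when p53 is absent by label. None of the 10 was called, and across the array limma called 0.015% of all genes higher and 0.0803% lower (3 and 16 genes). Before adjustment limma gave Dll3 a p of 0.0407 and Jag2 a p of 0.0451, the 2 members below 0.05. The median log2 change of the 10 was 0.24, beside 0.06 over all genes. In simulated data this set recovered 17.8% of 1.5-fold changes, so a gene without a call here may still have changed by that much.

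Jag2 levels in p53-/- cells were 6.46, 6.92 and 6.62 after adriamycin, against 6.28, 6.32 and 6.46 untreated. It was the only one of the 10 genes with separate groups, the nearest arrays of both groups rounding to 6.46, where 12.3% of all genes had every adriamycin array higher and 5.22% every adriamycin array lower. The log2 change was 0.32 ± 0.14 (SE, n = 3 each, 95% confidence interval 0.01 to 0.63, limma adjusted p = 0.419). Jag1 was at 6.95, 7.10 and 6.80 after adriamycin and 6.79, 6.91 and 7.27 untreated, with a change of -0.04 ± 0.15 (-0.37 to 0.29, limma adjusted p = 0.946). Leaving out untreated replicate 3, the highest of the Jag1 values, gave 0.10 (limma adjusted p = 0.687).

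Dll1 was at 5.32, 5.27 and 5.28 after adriamycin, against 5.22, 4.93 and 5.31 in untreated p53-/- cells. The groups overlapped and the change was 0.14 ± 0.13 (-0.16 to 0.43, limma adjusted p = 0.739). Dll3 had 5.88, 6.14 and 5.41 after adriamycin and 5.08, 5.34 and 5.66 untreated, a change of 0.45 ± 0.20 (0.02 to 0.88, limma adjusted p = 0.411) with overlapping groups. Dll4 had 4.98, 4.82 and 5.0 after adriamycin and 4.49, 4.59 and 5.08 untreated (0.21 ± 0.16, limma adjusted p = 0.654). Dll1, Dll3, Dll4 and Nrarp lay below the median gene of untreated p53-/- cells, at the 42.9th, 46.5th, 34.2nd and 48.4th percentile.

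Notch3 was at 6.98, 7.27 and 6.86 after adriamycin and 6.89, 6.86 and 6.79 untreated in p53-/- cells, a change of 0.18 ± 0.14 (-0.11 to 0.48, limma adjusted p = 0.644). Notch1 was at 7.32, 6.89 and 6.51 after adriamycin and 6.80, 6.59 and 6.43 untreated (0.30 ± 0.19, -0.12 to 0.71, limma adjusted p = 0.574). Its adriamycin arrays spread over a wider range than its untreated arrays. Notch2 was at 6.90, 6.83 and 6.74 after adriamycin and 7.04, 7.04 and 6.71 untreated (-0.11 ± 0.13, -0.40 to 0.19, limma adjusted p = 0.804). All 3 receptors had overlapping groups.

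Nrarp measured 5.19, 5.81 and 6.21 after adriamycin and 5.34, 5.53 and 5.57 in untreated p53-/- cells. One adriamycin array was below the untreated range and the other two above it, and the change was 0.26 ± 0.21 (-0.20 to 0.72, limma adjusted p = 0.676). Hey1 measured 6.13, 5.92 and 5.67 after adriamycin and 5.53, 5.46 and 5.85 untreated (0.29 ± 0.16, -0.05 to 0.63, limma adjusted p = 0.500). With each p53-/- array left out in turn none of the 10 genes was called. Without untreated replicate 3 the array-wide calls were 135 higher and 307 lower, and still none was a Notch gene of the 10. The log2 changes were then 0.22 for Dll1, 0.60 for Dll3, 0.39 for Dll4, 0.37 for Jag2, 0.21 for Notch1, -0.22 for Notch2, 0.16 for Notch3, 0.31 for Nrarp and 0.41 for Hey1, with limma adjusted p from 0.0999 for Dll3 to 0.687 for Jag1. Over the 6 arrays left out in turn, the change of Nrarp ran from 0.02 to 0.53, that of Notch1 from 0.09 to 0.50, that of Dll4 from 0.10 to 0.39 and that of Dll1 from 0.03 to 0.22.

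The adriamycin effect was then compared between the lines, as the log2 change in R1E minus that in p53-/- cells, each with the error of its own set. Of the 10 genes, 6 had a larger change in R1E and 1 a lower one, against 10.4% and 11.4% of all genes. The 6 were those that rose in R1E. Jag2 differed by 1.71 ± 0.15 (2.03 in R1E against 0.32 in p53-/- cells, limma adjusted p = 9.09e-07) and Notch3 by 1.62 ± 0.15 (1.8 against 0.18, limma adjusted p = 8.3e-07). Nrarp differed by 1.59 ± 0.22 (limma adjusted p = 0.000108), Dll1 by 1.08 ± 0.14 (limma adjusted p = 3.92e-05), Notch1 by 0.96 ± 0.20 (limma adjusted p = 0.00262) and Jag1 by 0.76 ± 0.16 (limma adjusted p = 0.00264). These 6 calls held with each of the 18 arrays left out in turn. In simulated data with 200 changed genes 12.8% of the calls for this difference were false, so calls close to the threshold may be less certain than their adjusted p implies. In the real data 2065 genes were called higher and 2266 lower, so that share need not carry over to these calls.

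Hey1 had the opposite sign, -0.53 ± 0.17 (-0.24 in R1E against 0.29 in p53-/- cells, limma adjusted p = 0.0347). That call ended without R1E mock replicate 3 (-0.48, limma adjusted p = 0.055), without untreated p53-/- replicate 1 (-0.49, limma adjusted p = 0.0945) or 2 (-0.45, limma adjusted p = 0.131), and without p53-/- adriamycin replicate 1 (-0.41, limma adjusted p = 0.16) or 2 (-0.52, limma adjusted p = 0.0975). It also ended when the p53-/- values were scaled to the R1E spread (-0.57, limma adjusted p = 0.0512). Dll3 differed by -0.52 ± 0.21 (-0.96 to -0.08, limma adjusted p = 0.0935), and it passed without untreated p53-/- replicate 3 (-0.67, limma adjusted p = 0.0189) or p53-/- adriamycin replicate 3 (-0.72, limma adjusted p = 0.024). Dll4 differed by -0.14 ± 0.18 (-0.51 to 0.24, limma adjusted p = 0.662) and Notch2 by -0.15 ± 0.15 (-0.46 to 0.16, limma adjusted p = 0.564). Genotype, cell line, array set and processing tool all change together between the 2 sets and cannot be told apart in these differences. Marker levels are given by set as deposited. Array medians were 5.9 to 6.05 in R1E and 5.58 to 5.72 in p53-/- cells. A gap in marker level between the sets therefore cannot be told apart from processing. Mean levels on untreated p53-/- arrays were 6.59 to 6.69 for endoderm markers and 6.37 to 6.53 for trophectoderm markers. On R1E mock arrays they were 5.47 to 5.53 and 5.78 to 5.96. Neural and mesoderm means were 5.40 to 5.49 and 5.01 to 5.08, beside 5.46 to 5.54 and 5.07 to 5.17 in R1E mock. The endothelial mean was 5.25 to 5.48, beside 5.59 to 5.66. The part of these levels, and of the fibroblast and stem cell levels given above, in the differences was not tested.

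**Figure D3:**
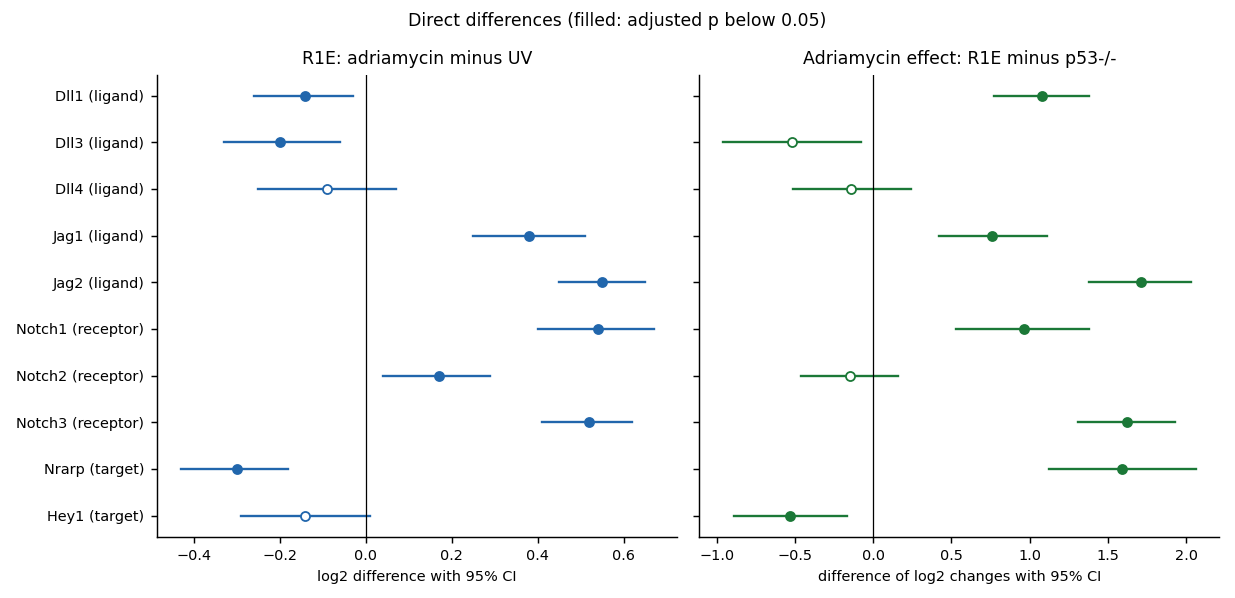
Left, adriamycin minus UV in R1E cells (log2 difference), and right, the adriamycin effect in R1E minus that in p53-/- cells (difference of log2 changes), for each Notch gene with its 95% confidence interval and filled points for a limma adjusted p below 0.05. On the left Jag1, Jag2, Notch1 and Notch3 lie between 0.38 and 0.55 and Nrarp at -0.30, and on the right the 6 genes that rose in R1E lie between 0.76 and 1.71.

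The rest of the pathway did not move one way. Of 51 other Notch pathway genes, listed by role, adriamycin raised 17 and lowered 18 in R1E cells, and UV raised 15 and lowered 15, with medians of -0.03 and 0.05. As shares, adriamycin raised 33.3% and lowered 35.3% of them, against 22.1% and 25.6% of all genes, and UV raised and lowered 29.4% each, against 22.6% and 21.2%. The same shares of all genes stand beside the counts by role that follow, each of which rests on few genes. None was called in p53-/- cells, where without untreated replicate 3 the ubiquitin ligase gene Dtx1 was called higher (log2 change 0.63 ± 0.13, limma adjusted p = 0.0391). The difference between the lines was positive and called for 7 (13.7%) and negative and called for 12 (23.5%), against 10.4% and 11.4% of all genes.

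Notch4, the fourth receptor, had the largest fall: a log2 change of -1.88 ± 0.07 after adriamycin and -0.37 ± 0.07 after UV, with -0.29 ± 0.13 in p53-/- cells, where it was not called. Its direct difference between adriamycin and UV was -1.51 ± 0.07, the largest of the 51. Among 4 other receptors and ligands, which include the non-canonical ligands Dlk1, Dlk2 and Dner, 1 was higher and 2 lower after adriamycin, and 2 higher and 2 lower after UV.

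Of 8 other HES and HEY genes, 4 were higher and 1 lower after adriamycin, and 3 higher and 1 lower after UV. Hey2, a relative of Hey1, rose by 1.36 ± 0.07 after adriamycin and 1.03 ± 0.07 after UV (log2), and was higher after adriamycin than after UV by 0.33 ± 0.07. The mean log2 level of Hey2 was low in mock cells, 4.59, beside 4.62 for Dll4. It was 5.96 after adriamycin and 5.63 after UV. In p53-/- cells it was also low, 4.28 after adriamycin and 4.30 untreated, where a change may be understated. Hes6, which opposes Hes1 in neurogenesis, rose by 0.82 ± 0.06 and 0.88 ± 0.06. Hes1, the target most often used as a readout of Notch, fell by 0.50 on the log2 scale after adriamycin and 0.40 after UV (-0.50 ± 0.07 and -0.40 ± 0.07). Hes5, a target in neural progenitors, was at -0.05 ± 0.11 and 0.13 ± 0.11 and was not called. Nrarp and Hey2 thus rose where Hes1 fell and Hes5 did not pass the test.

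Among 9 genes of the nuclear complex and its corepressors, 1 was higher and 4 lower after adriamycin, and 1 higher and 3 lower after UV. Rbpj, the DNA-binding partner of the receptor, was at -0.68 ± 0.05 after adriamycin and -0.63 ± 0.05 after UV, lower in both, and Kat2b, a histone acetyltransferase of the complex, at -1.05 ± 0.08 and -0.91 ± 0.08, also lower in both. Rbpj has 2 probes, as do Fbxw7, Maml2, Aph1a, Psenen and Neurl1b among the other pathway genes. For each the probe brightest on average was used.

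The receptor is modified by sugars before it reaches the surface, and of 6 glycosylation genes 4 were higher and 1 lower after adriamycin, with the same counts after UV. The one that fell was Lfng, a fringe enzyme that shifts receptor preference toward Delta ligands, at -0.85 ± 0.07 and -0.64 ± 0.07, while its relative Rfng rose, by 0.51 ± 0.06 and 0.71 ± 0.06 on the log2 scale. Of 9 receptor cleavage genes, 3 were higher and 3 lower after adriamycin, and 1 higher and 2 lower after UV, with the protease gene Adam10 at -0.42 ± 0.06 and -0.81 ± 0.06, lower in both. For the 6 genes of ligand ubiquitination, which lets a ligand pull on its receptor, the counts were 3 higher and 1 lower after adriamycin and 2 higher and 1 lower after UV. Mib1, a ligase of this group, was not called after adriamycin (0.08 ± 0.06) and fell after UV (-0.41 ± 0.06), a direct difference of 0.49 ± 0.06.

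Receptor turnover and inhibition made up the last group of 9, with 1 higher and 6 lower after adriamycin, and 2 higher and 5 lower after UV. Fbxw7, the subunit that marks the active receptor fragment for degradation, rose by 1.24 ± 0.05 after adriamycin and 0.74 ± 0.05 after UV (log2). Dtx3l, of the Deltex family, fell in both (-1.0 ± 0.08 and -0.39 ± 0.08). Dtx1 fell after adriamycin (-0.61 ± 0.07), with -0.07 ± 0.07 after UV, and Numbl, related to the Notch inhibitor Numb, had -0.16 ± 0.05 after adriamycin and 0.31 ± 0.05 after UV, both called. Direct differences between adriamycin and UV were -0.60 ± 0.08 for Dtx3l, -0.54 ± 0.07 for Dtx1, 0.50 ± 0.05 for Fbxw7 and -0.47 ± 0.05 for Numbl, all called.

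Between the lines, the largest called differences in the adriamycin effect among these 51 genes were -1.59 ± 0.15 for Notch4, 1.48 ± 0.14 for Fbxw7, 1.38 ± 0.14 for Hey2, -1.25 ± 0.21 for Dtx3l, -1.21 ± 0.16 for Lfng and -1.14 ± 0.16 for Dtx1. Kat2b differed by -0.97 ± 0.14, Hes1 by -0.71 ± 0.19 and Rbpj by -0.62 ± 0.14, all called, and Hes5 by -0.16 ± 0.21, not called. In p53-/- cells, where none was called, the adriamycin change was 0.21 ± 0.17 for Hes1, 0.12 ± 0.17 for Hes5, -0.06 ± 0.14 for Rbpj and 0.36 ± 0.14 for Lfng. The direct difference between adriamycin and UV in R1E was -0.10 ± 0.07 for Hes1, -0.18 ± 0.11 for Hes5 and -0.05 ± 0.05 for Rbpj, none called, and -0.21 ± 0.07 for Lfng, called lower.

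**Figure D4:**
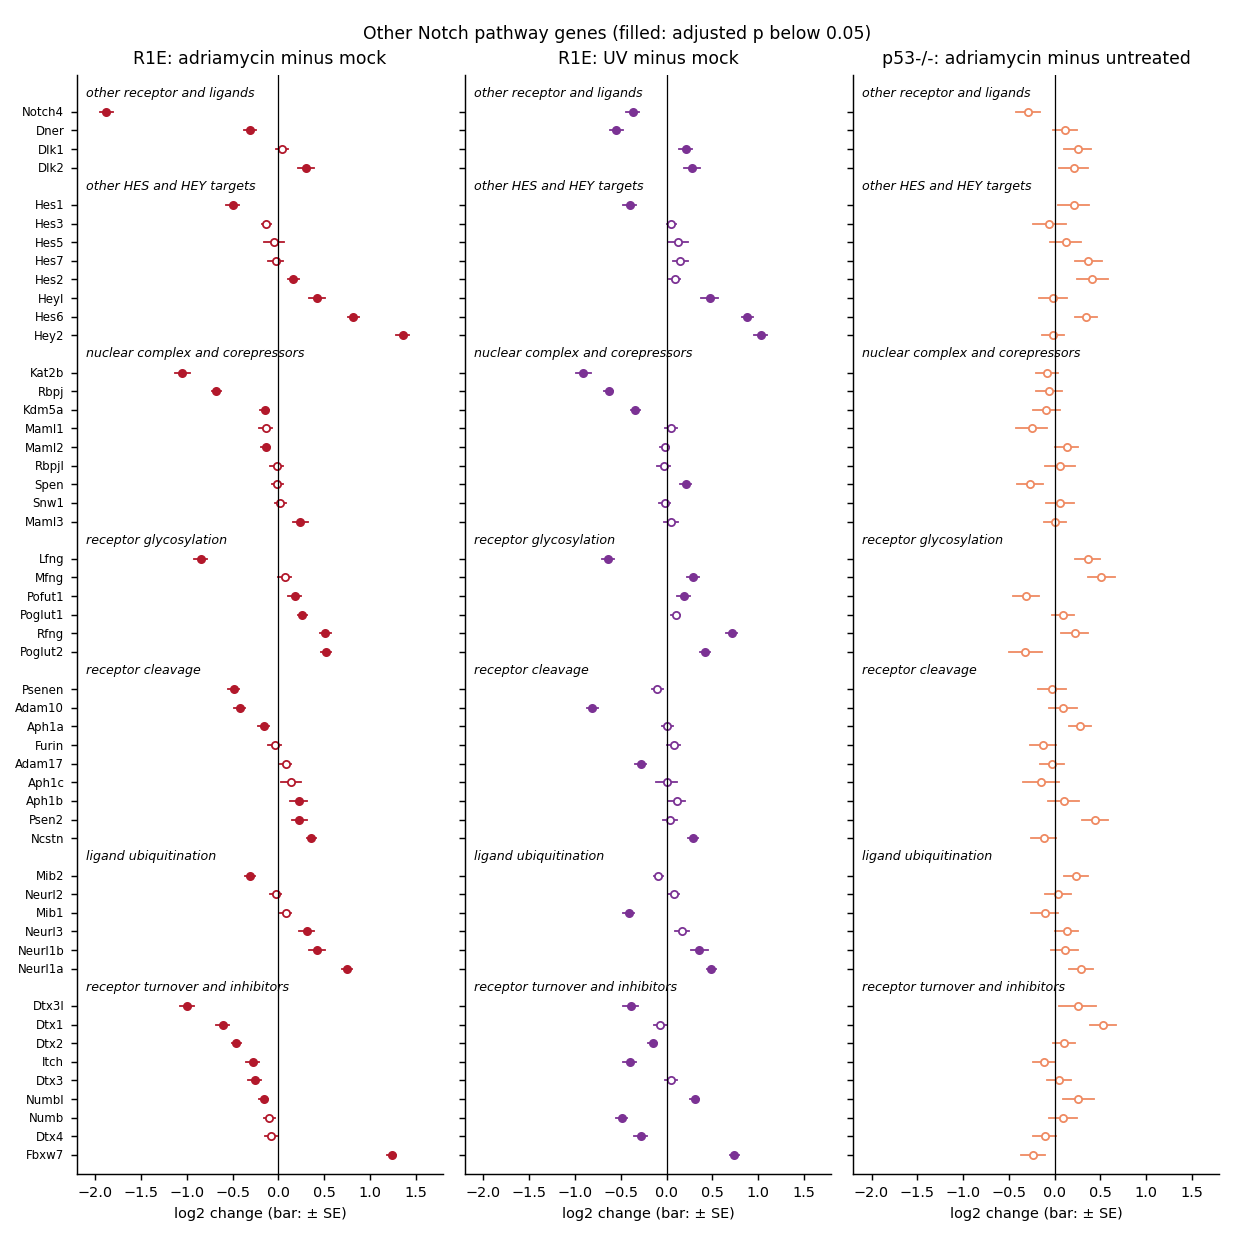
Log2 change (horizontal axis, bars ± SE) of 51 other Notch pathway genes, grouped by role, for adriamycin minus mock in R1E, UV minus mock in R1E and adriamycin minus untreated in p53-/- cells, with filled points for a limma adjusted p below 0.05. Notch4 at -1.88 and Hey2 at 1.36 are the extremes after adriamycin, and no p53-/- point is filled.

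Markers of other cell types were read beside the Notch genes, since ligands and targets mark differentiated lineages too. The counts below stand beside 22.1% of all genes higher and 25.6% lower after adriamycin in R1E, and 22.6% and 21.2% after UV. Counts on lists this short and near those shares say nothing particular about a list. In R1E cells 13 of 14 embryonic stem cell markers were lower after adriamycin and 10 after UV, among them Nanog (-1.12 ± 0.08 and -0.37 ± 0.08), while Pou5f1 was at -0.18 ± 0.05 after adriamycin and -0.07 ± 0.05 after UV. Of 10 neural markers 1 was higher and 4 lower after adriamycin, and 2 higher and 3 lower after UV. Neurod1, a neuronal transcription factor, was the one higher after adriamycin, at 2.13 ± 0.07, and stood at 1.47 ± 0.07 after UV, and the lower ones after adriamycin were Tubb3 (-0.83 ± 0.06), Pax6 (-0.74 ± 0.08), Nes (-0.55 ± 0.05) and Map2 (-0.45 ± 0.06). The mean level of the neural list was 5.38 to 5.49 on adriamycin arrays, 5.52 to 5.55 on UV arrays and 5.46 to 5.54 on mock arrays. Of 7 endothelial markers 2 were higher (Tek 1.72 ± 0.05, Tie1 0.20 ± 0.06) and 3 lower (Kdr -0.38 ± 0.07, Pecam1 -0.22 ± 0.04, Emcn -0.15 ± 0.05) after adriamycin. After UV 1 was higher, Tek at 0.34 ± 0.05, and 3 were lower. The mean level of the endothelial list was 5.75 to 5.81 on adriamycin arrays, 5.58 to 5.63 on UV arrays and 5.59 to 5.66 on mock arrays. Of 6 trophectoderm markers 1 was higher and 2 lower after adriamycin, Eomes at -1.87 ± 0.07, and 1 higher and 1 lower after UV, with mean levels of 5.47 to 5.58 on adriamycin arrays, 5.73 to 5.82 on UV arrays and 5.78 to 5.96 on mock arrays. Of 5 mesoderm markers 1 was higher after adriamycin (Mesp1, 0.53 ± 0.07) and 2 after UV, with mean levels of 5.15 to 5.31 on adriamycin arrays, 5.17 to 5.33 on UV arrays and 5.07 to 5.17 on mock arrays. Of 6 endoderm markers 2 were lower after adriamycin and 1 after UV, with mean levels of 5.23 to 5.45 on adriamycin arrays, 5.33 to 5.58 on UV arrays and 5.47 to 5.53 on mock arrays. Of 8 fibroblast markers 2 were higher (Col1a1 0.60 ± 0.07, Pdgfra 0.56 ± 0.07) and 1 lower (Thy1 -0.35 ± 0.07) after adriamycin, and 3 higher after UV, with mean levels of 5.01 to 5.13 on adriamycin arrays, 5.05 to 5.12 on UV arrays and 4.91 to 5.02 on mock arrays. In p53-/- cells no marker of these lists was called after adriamycin, and without untreated replicate 3 the stem cell marker Zfp42 (-1.05 ± 0.24), the endoderm marker Gata6 (-0.67 ± 0.13) and the fibroblast marker Postn (-0.53 ± 0.12) were lower. The part of these markers in the changes of the Notch genes was not tested.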

How the data were processed

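The deposited table holds log2 intensities of 18 arrays. The submitters' processing notes name Affymetrix Expression Console 1.1 for R1E and RMA in Partek 6.4 for p53-/- arrays; the Expression Console algorithm, and the array's genome build, are not given in the sources used here. Of 28853 probes, 28815 had a value on all arrays and 21780 of these named 1 gene, 1605 several and 5430 none. Symbols were checked by Entrez ID against RefSeq (21689 matched), and for the 998 genes with several probes the one brightest on average across the arrays was kept, giving 19935 genes.

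Log2 values were tested as deposited in limma 3.58.1 (R 4.3.3) with lmFit and eBayes, with 1 fit over 12 R1E arrays and 1 over 6 p53-/- arrays, no filter on dim genes, and Benjamini-Hochberg adjustment over all genes. The difference between the lines combined both fits, each with its own moderated variance and Satterthwaite degrees of freedom. The scripts were tested on simulated data with 200 changed genes. Of the calls made there, 12.8% were false for the difference between the lines. The share was 5.4% for adriamycin in R1E, 5.92% for UV in R1E and 2.85% in p53-/- cells. In p53-/- cells 17.8% of 1.5-fold changes and 70.8% of changes of 1 log2 unit were recovered. For adriamycin in R1E these shares were 96.4% and 99.8%. The median SE of a log2 change was 0.063 in R1E and 0.14 in p53-/- cells, and how many arrays there are limits that precision. Alternatives covered normalization, centring, dim genes, the choice of probe, the prior, the samples fitted, a replicate block, each array left out, and the spread of the line difference. Other pathway genes were named where they were among the 6 largest called changes of a comparison or were Hes1, Hes5, Rbpj or Lfng; pattern neighbours are the 3 highest correlations for the ligand, receptor and target that changed most. Single markers, and some values of named genes in further comparisons, were chosen after their values were seen. The Notch genes and all lists were chosen with earlier results of these data known. The other pathway lists hold 51 genes with a probe naming that gene alone.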

Additional observations from a re-analysis of the deposited data

Results flagged for a closer look

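One array stood far from its group for a Notch gene. Hey1 was at 5.5 on R1E UV replicate 3, against 5.68 to 5.71 on the other UV arrays, a gap of 0.841 of the group's range, above Dixon's 95% critical value for 4 samples. The test was made on 30 sets of gene and group, and chance passes it in about 1 of 20.

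The adriamycin effect differed between R1E and p53-/- cells, by the test of the difference itself, for 7 of the 10 genes. Of these 6 were higher and 1 lower, where 10.4% of all genes were called higher and 11.4% lower. The 10 were chosen with earlier results of these data known, so the count is a description. The Hey1 call was lost in 5 of the 18 fits with 1 array left out. The difference in log2 change, R1E minus p53-/-, was 1.71 for Jag2, 1.62 for Notch3, 1.59 for Nrarp, 1.08 for Dll1, 0.96 for Notch1, 0.76 for Jag1 and -0.53 for Hey1. The adjusted p of that test, a Satterthwaite t-test on the limma estimates, ran from 8.3e-07 for Notch3 to 0.0347 for Hey1.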

How the results depend on the processing

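The 30 called changes of the 10 genes were recomputed under 628 alternatives, of which 602 kept the call and the direction, 26 lost the call and 0 turned the direction. Many of these could not turn the direction. Each of the 10 genes had 1 probe, so the mean of all probes repeated its log2 change. Alternatives that changed only the prior, the spread or the arrays outside a comparison also left the log2 change as it was, and could move only the adjusted p. Under adriamycin in R1E, 1 of the 10 genes was lower with dim genes left out (Hey1 being among those removed), against 2, and of the other pathway genes 10 were higher with array medians centred and 9 with dim genes left out, against 17. Leaving out dim genes kept only genes at or above the median level of their set. Counts under it come from fewer genes and are not shares of the same total. The change of Dll4 was 0.00 with quantile normalization and -0.05 with medians centred, against 0.07. After UV, 2 were lower with quantile normalization, against 1. Leaving out 1 array at a time gave 1 to 3 lower genes for adriamycin against UV, 0 to 1 higher other pathway genes in p53-/- cells, a Jag1 change of -0.14 to 0.10 there, and, for the difference between the lines, 0 to 2 lower genes and 3 to 8 higher other pathway genes. That difference had 0 lower genes with dim genes left out, 0 with a replicate block, 2 with 1 shared spread (Dll3, limma adjusted p = 0.045) and, in an alternative chosen after seeing the data that scaled p53-/- values by 1.155, 0 lower genes and 4 higher other pathway genes, against 7. Its 6 higher genes held in each of these, except that with dim genes left out Dll1 and Nrarp were not tested and 4 remained. The cause of these shifts was not tested, apart from the genes or arrays removed.

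Centring moved the median of all genes after adriamycin in R1E by -0.125 and the share of calls that were higher to 25.4%, against 46.3%; after UV it was 35.3% against 51.6%, for adriamycin against UV 34.7% against 47.2%, and in p53-/- cells 4.2% against 15.8%. All-gene calls were 9640 lower with centring against 5110 after adriamycin in R1E, and 1182 higher with dim genes left out against 2065 for the difference. The 1182 come from fewer genes tested, since the dim ones were removed. In p53-/- cells they were 1 higher with centring against 3, 0 higher and 5 lower with a replicate block against 3 and 16, and 0 to 135 higher and 0 to 307 lower with 1 array left out. Same-numbered arrays deviated together with correlations of -0.142 to 0.163 in R1E and -0.103 to 0.191 in p53-/- cells. Arrays with different numbers gave -0.423 to 0.391 and -0.169 to 0.081. The numbers thus show no pairing in R1E, though some arrays with different numbers shared deviations there, whose source was not tested. In p53-/- cells the 3 same-numbered pairs are too few to tell. With the block, Dll1 was no longer called for adriamycin against UV (limma adjusted p = 0.0607, also lost at 0.0664 with a trend and robust prior), nor Hey1 for the difference (limma adjusted p = 0.0532). Dim signal limits what can be said of Dll3, Dll4 and Hey1 in R1E, and of Dll1, Dll3, Dll4 and Nrarp in p53-/- cells. The differences between the lines for these genes carry the same limit.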
